A study of Nothobranchius furzeri with 9 samples.

Results

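Late-life change in the liver of the African turquoise killifish (Nothobranchius furzeri) was read from the old and adult livers of the series, 6 of its 9 libraries. All animals were males of the wild-type GRZ strain, a laboratory strain with a very short life span. The old group comprised 3 livers taken at 23 to 24 weeks, and the adult group comprised 3 livers taken at 12 weeks. The remaining 3 libraries, from young fish of 6 weeks, entered no fit reported here unless stated. Libraries were made from whole-liver total RNA with a SMART-Seq mRNA kit, so all cell types of the organ were measured together, and fewer cells of a type cannot be told apart from less RNA per cell. The labels do not say whether the replicates of an age came from separate fish, tanks or days; the p-values measure the spread between these samples. All 25475 genes of the deposited table were considered, and 13094 passed the filter on low counts and were tested.

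The liver makes most plasma proteins, stores and releases glucose, builds cholesterol and fatty acids, and breaks down fat in mitochondria. Cholesterol and fatty acid synthesis are switched on after feeding, largely through transcription factors of the SREBP family and insulin. The part of feeding before sampling in the results for such genes was not tested. Secreted proteins fold in the endoplasmic reticulum (ER), which carries its own chaperones and a route that returns failed proteins to the cytosol for destruction. In ageing tissue, cells that stop dividing can raise cyclin-dependent kinase inhibitors such as CDKN1A (p21), a state known as senescence.

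The libraries held 19600325, 19923417 and 23296247 estimated counts in old livers 1, 2 and 3, and 26890914, 22079423 and 26974448 in adult livers 1, 2 and 3. The share of counts in ribosomal RNA genes was 21.98, 15 and 7.07% in old livers, against 2.22, 2.51 and 2.38% in adult livers. All 3 old libraries were above all 3 adult ones, with old 3 nearest to them (exact permutation test over 20 splits, two-sided p = 0.1, the smallest that 3 against 3 allows; 0.169 after adjustment over 27 library-level values). Most of this RNA was mitochondrial, at 19.2, 13.17 and 6.17% in old livers and 1.98, 2.31 and 2.13% in adult livers. The order old 1, old 2, old 3, adult recurs in many of the results below. The part of the ribosomal RNA share in them was not tested beyond the fit with that share as a covariate. The share did not overlap between the ages, so that fit cannot tell it apart from age. Old livers also varied more among themselves. Log2 CPM, counts scaled to TMM-adjusted library sizes, correlated at 0.811 to 0.855 between old libraries and at 0.949 to 0.954 between adult libraries, and 10386 of the 13094 genes (79.3%) had a larger SD in old livers.

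**Figure D1:**
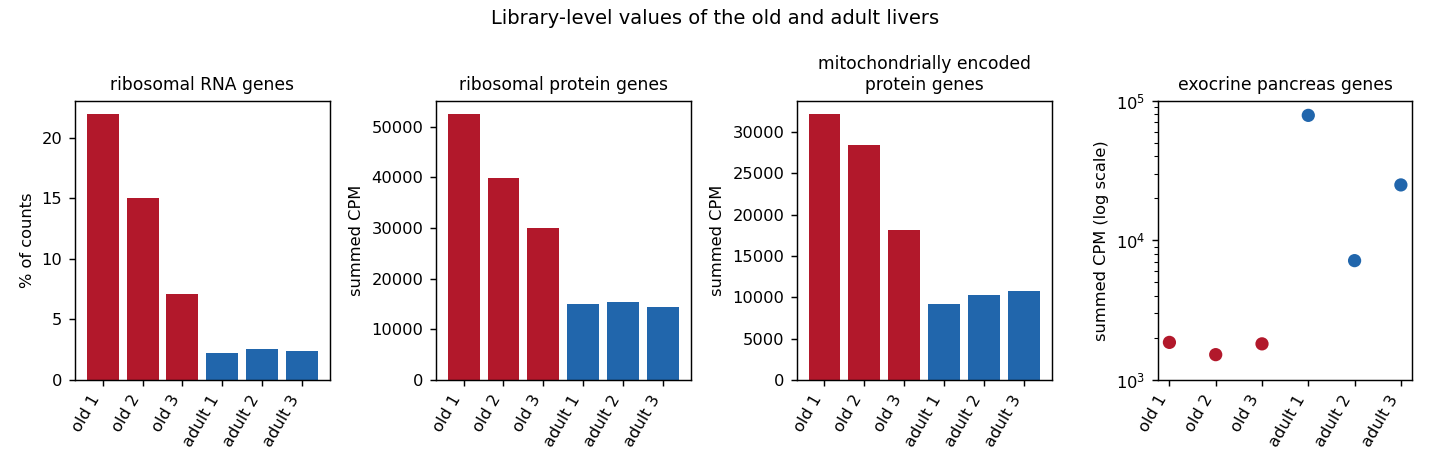
Share of counts in ribosomal RNA genes (%) and summed CPM of the ribosomal protein, mitochondrially encoded protein and exocrine pancreas lists, 1 bar or point per library, old in red and adult in blue; the last panel has a log axis. Old 1 is highest and old 3 lowest of the old libraries in the first 3 panels, while pancreas genes sum to 1515 to 1855 CPM in old livers and 7150 to 78616 CPM in adult livers.

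Of the 13094 genes tested, 971 were higher in old livers (7.42%) and 711 were lower (5.43%) at an adjusted p under 0.05 in edgeR's quasi-likelihood test, together 1682 (12.8%). The median log2 fold change over all genes was -0.03. Among called genes it was 1.69 for those higher and -1.96 for those lower, and 364 and 344 changed by more than 4-fold. No library of either age overlapped the other age in 1680 of the 1682 calls. Over all 13094 genes tested, old livers lay wholly above adult livers in 2611 and wholly below in 2766. A lack of overlap is thus common here, and nearly a condition of a call. Of the 971 higher genes, 761 had old 3 as the lowest old library, against 4555 of all 13094. These calls came from the fit of all 6 libraries, and their number depended on which library was left out. edgeR called 0 genes without old 2 (3667 at an unadjusted p under 0.05, smallest adjusted p 0.0553) and 0 without adult 1 (2842, 0.0697). It called 45 without adult 2 and 45 without adult 3, of which 44 and 43 were among the 1682. Without old 1 the count was 1229, and without old 3 it was 3762. Every call below therefore ended without old 2 or without adult 1, and of the 146 called genes named here 7 were called without adult 2 and 22 without adult 3. After adding the ribosomal RNA share to the model, 0 genes were called (2296 at an unadjusted p under 0.05), and 1676 of the 1682 had the same direction. With the young libraries in the fit, which share 1 estimate of the spread, 1 gene was called. DESeq2 called 3071 genes and limma-voom 2006. The 1682 genes kept their direction in every fit that left out a library, wherever they were tested. The lack of overlap in 1680 of them all but fixed this in advance, so it adds no support.

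**Figure D2:**
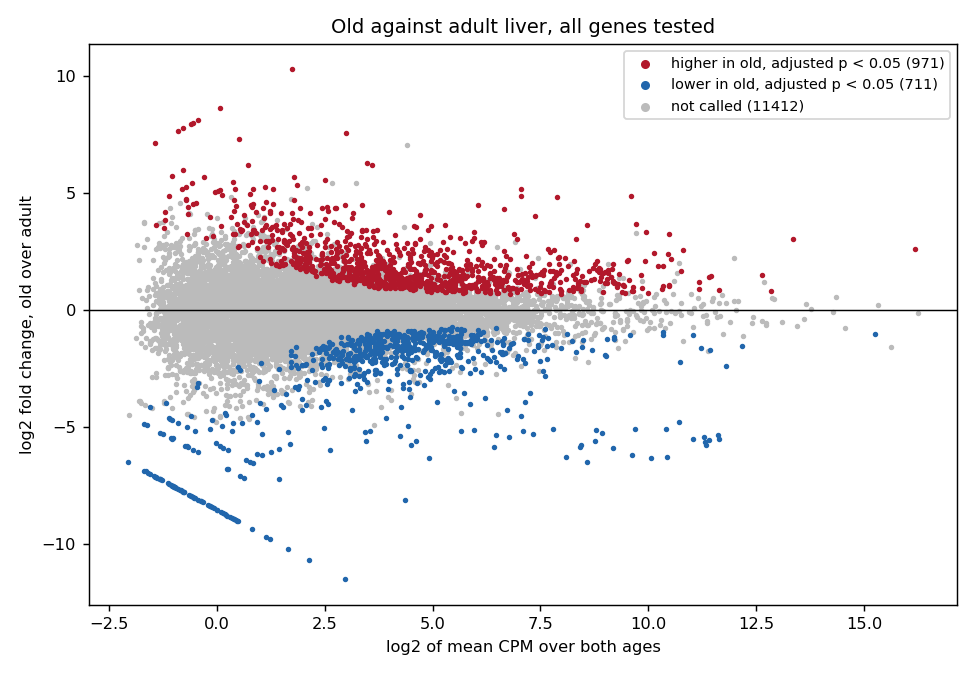
Log2 fold change, old over adult, against the log2 of mean CPM for the 13094 genes tested; red points are the 971 genes higher in old livers, blue points the 711 lower, grey points those not called. Calls lie on both sides of 0, and the straight run of blue points at lower left holds genes such as HMMR with no count in old livers, whose fitted values are no bound.

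CDKN1A, GADD45BA and HTRA1B rose in old livers. CDKN1A, the p21 inhibitor of cyclin-dependent kinases (ENSNFUG00015005973, chromosome 10, 48800959 to 48801821, as the deposited table gives it; the genome build is not given in the sources used here), was at 83.6, 38.9 and 40.7 CPM in old livers, against 5.13, 5.07 and 4.99 CPM in adult livers. All 3 old libraries lay far above an adult group that hardly varied, with a log2 fold change of 3.42 ± 0.36 (SE, edgeR adjusted p = 0.0136). GADD45BA, of a family of stress-induced growth-arrest proteins (ENSNFUG00015023788, chromosome 17, 7252 to 8507), was at 193.6, 47.0 and 137.9 CPM in old livers and 3.87, 4.22 and 8.78 CPM in adult livers. The groups were widely apart although old 2 was lower than the other old livers, at a log2 fold change of 4.49 ± 0.61 (edgeR adjusted p = 0.0161). HTRA1B, a serine protease released from cells that cuts matrix proteins (ENSNFUG00015004780, chromosome 12, 10824105 to 10865694), was at 357.8, 479.3 and 316.6 CPM in old livers and 40.2, 37.7 and 117.8 CPM in adult livers. Adult 3 was the highest adult library, and the log2 fold change was 2.56 ± 0.48 (edgeR adjusted p = 0.0208), or 3.27 without adult 3.

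In the list of senescence and cell cycle arrest genes, 5 of 51 tested members rose (9.8%, near the 7.42% over all genes), 2 fell and 44 were not called, at a median log2 fold change of -0.04 beside -0.03 over all genes. The other risers were the anti-proliferation factor BTG1 (1.62), the survival factor MCL1B (1.17) and the stress sensor sesn1 (1.24, all log2). The lamin LMNB2 fell (-2.26, or -2.87 without old 2), as did rb1, the retinoblastoma corepressor (-2.45). The secretory list of senescent cells had a median of -0.43, which was -0.15 without old 1, -0.92 without old 3, -0.68 without adult 3 and 0.30 after adding the ribosomal RNA share to the model. In it 2 of 32 rose and 2 fell, 6.25% each way, near the 7.42% higher and 5.43% lower over all genes. Those that rose were HTRA1B and the growth factor tgfb1a (1.63). Those that fell were IGFBP4 (-2.09), an IGF-binding protein, and ANGPTL2B, with no count in old livers against 1.57, 1.6 and 0.975 CPM in adult livers. A panel of 31 ageing and senescence genes was read whatever their values; 24 were tested, of which 3 rose, 2 fell and 19 were not called. FOXO3B, a stress-response transcription factor, was at 92.9, 67.5 and 1.77 CPM in old livers and 7.20, 9.92 and 5.51 CPM in adult livers, so that old 3 lay below the adult range and the gene was not called (edgeR adjusted p = 0.124). The sirtuins sirt1 and SIRT6 had log2 fold changes of -0.04 and 0.05, with overlapping groups. Cdkn2b, a second kinase inhibitor, was counted in old 2 only, at 0.194 CPM, and was too low to be tested.

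**Figure D3:**
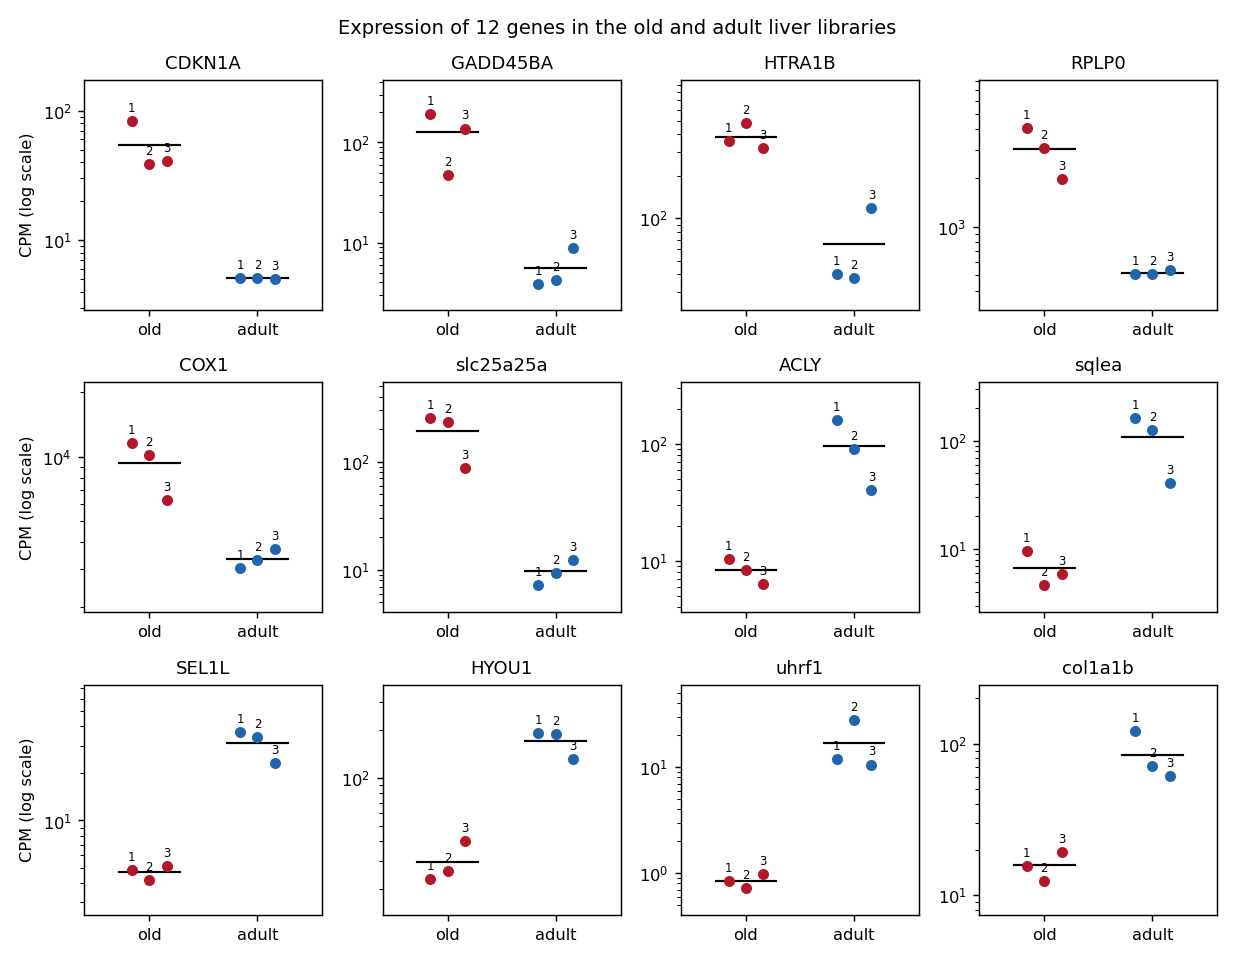
CPM on a log axis of 12 genes, old libraries on the left and adult on the right, each point numbered by library and the line marking the mean of 3. In all 12 genes the old and adult libraries do not overlap, with 6 genes higher and 6 lower in old livers. All were picked from the called genes, of which 1680 of 1682 do not overlap.

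Ribosomal protein genes were higher in old livers. Of 81 tested cytosolic ribosomal protein genes, 70 rose (86.4%, beside 7.42% over all genes), 0 fell and 11 were not called. Their median log2 fold change was 1.39. Their summed abundance was 52489, 39779 and 29970 CPM in old livers, against 15001, 15396 and 14351 CPM in adult livers. Every old library was above every adult one, and the old libraries stood in the same order as in ribosomal RNA share. RPLP0, a protein of the ribosomal stalk, was at 4069, 3072 and 1978 CPM in old livers and 505.8, 505.6 and 535.8 CPM in adult livers, a log2 fold change of 2.56 ± 0.29 (edgeR adjusted p = 0.0161). The small-subunit gene rps9 rose most, at 912.7, 520.6 and 285.3 CPM in old livers and 67.2, 72.0 and 71.9 CPM in adult livers (3.02 ± 0.42, edgeR adjusted p = 0.0161). Both subunits took part, with 41 of 49 large-subunit and 29 of 32 small-subunit genes higher. The members not called included rpl4 (0.27), RPL36 (0.77) and RPS27 (-0.54). Some ribosomal protein genes have near-identical copies, so the count of a single member is less certain than the sum. The number higher was 65 without old 1 and 73 without old 3, and 0 without any other library. The list median ran from 1.12 to 1.53 over the libraries left out, and was 0.69 after adding the ribosomal RNA share to the model. Young 1, 2 and 3, scaled by size alone, had sums of 42850, 20394 and 24919 CPM.

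Most elongation factors rose too. Of 5 tested, 4 rose, led by EEF2, which moves the ribosome along the message, at 2870, 2772 and 2296 CPM in old livers and 824.4, 790.5 and 866.8 CPM in adult livers (log2 fold change 1.68 ± 0.19, edgeR adjusted p = 0.0161), and eef1g (1.77). Initiation factors were mixed, with 11 of 28 higher, among them EIF3F (1.17), EIF4A1 (1.17) and EIF4EBP1 (ENSNFUG00015009271, 1.5), the repressor of cap-dependent initiation, and 4 lower, among them EIF3B (-1.19) and eif4g1a (-1.63). Aminoacyl-tRNA synthetases, which load amino acids onto tRNAs, pointed the other way: 0 of 11 rose and 4 fell, LARS1 (-1.55), mars1 (-1.35), VARS (-1.3) and WARS1 (-2.61, or -3.92 without old 2). Over all genes 7.42% rose and 5.43% fell. Genes for ribosome biogenesis were not far from these shares, with 4 of 69 higher (5.8%), such as the helicase ddx21 (1.47). Another 6 were lower (8.7%), such as NPM1A (-1.45) and UTP15 (-1.77). Of 73 mitochondrial ribosomal proteins, 3 rose (4.11%, under the share of all genes) and 0 fell.

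Mitochondrial transcripts divided by function. Of the 13 protein genes encoded in mitochondrial DNA, 9 rose (69.2%, beside 7.42% over all genes) and 0 fell. Their median log2 fold change was 1.2. COX1, the catalytic subunit of cytochrome c oxidase, was at 11582, 10227 and 6293 CPM in old livers and 3017, 3296 and 3733 CPM in adult livers (1.48 ± 0.27, edgeR adjusted p = 0.0191). ATP6, of the ATP synthase, was at 1192, 965.1 and 612.1 CPM in old livers and 194.6, 257.2 and 250.0 CPM in adult livers (1.98 ± 0.29, edgeR adjusted p = 0.0161). Old 3 was again nearest to the adult range in both. These 13 genes took 3.09, 2.95 and 1.76% of all counts in old livers and 0.89, 1.11 and 1.06% in adult livers. The list median was 0.55 with the ribosomal RNA share, itself mostly mitochondrial, as a covariate. Young 1, 2 and 3, scaled by size alone, had list sums of 72158, 13476 and 14939 CPM. Of 73 respiratory-chain subunits encoded in the nucleus, 13 rose (17.8%), 0 fell and 60 were not called, with a median of 0.47. The number higher was 5 without old 1 and 5, at a median of 0.24, with a gene length trend removed from each library. They included COX7A3 (1.29), NDUFA6 (1.00) and ndufa1 (1.29), and 8 of 38 complex I genes. The list sum was 5521, 5046 and 5241 CPM in old livers and 3826, 4397 and 4000 CPM in adult livers. In this sum the old libraries did not follow the order of their ribosomal RNA share. Nor did they in the sums of complexes I, II and III. The sums of complex IV (1925, 1713 and 1514 CPM in old livers) and complex V (337, 268 and 263 CPM) did follow it.

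Some enzymes of the tricarboxylic acid (TCA) cycle and the pyruvate dehydrogenase complex fell. Of 33 tested genes, 7 fell (21.2%) and 1 rose (3.03%), with a median of -0.36. Over all genes 5.43% fell and 7.42% rose. Citrate synthase, CS, fell by 2.05 and the oxoglutarate dehydrogenase gene OGDH by 2.59 on the log2 scale. A second gene described as oxoglutarate dehydrogenase (ENSNFUG00015017190), singled out after its values were seen, shared the smallest adjusted p of the whole comparison, at 53.9, 48.1 and 42.5 CPM in old livers and 288.1, 345.8 and 396.5 CPM in adult livers (-2.83 ± 0.22, edgeR adjusted p = 0.0102). Its old libraries were close together. DLAT (-1.19), SUCLG1 (-1.33), pdha1a (-1.2) and sucla2 (-1.52) fell as well. The member that rose was PC, pyruvate carboxylase, which feeds both the cycle and glucose synthesis, at 148.3, 130.6 and 87.1 CPM in old livers and 39.5, 47.6 and 49.9 CPM in adult livers (1.42 ± 0.25, edgeR adjusted p = 0.0188). After adding the ribosomal RNA share to the model the list median was -0.04, and it was -0.74 without old 3 and -0.10 with the length trend removed. slc25a25a, a calcium-dependent mitochondrial carrier of ATP and phosphate, was among the 12 largest rises, at 252.8, 233.2 and 88.3 CPM in old livers and 7.23, 9.37 and 12.4 CPM in adult livers (4.31 ± 0.46, edgeR adjusted p = 0.015).

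Cholesterol synthesis was lower in old livers along the pathway. All 27 tested genes had negative log2 fold changes, with a median of -1.57. Of these 9 were called (33.3%, beside 5.43% lower over all genes) and 0 rose. The sum of the list was 1192.5, 604.5 and 1693 CPM in old livers and 5055, 4298 and 2286 CPM in adult livers. Adult 3 lay nearest to the old range. The early enzyme HMGCS1, which makes the precursor of mevalonate, was at 2.60, 5.62 and 24.9 CPM in old livers and 396.0, 296.9 and 70.8 CPM in adult livers (-4.52 ± 0.99, edgeR adjusted p = 0.0297), or -5.97 without old 3. Further along, FDPS, which builds the isoprenoid chain, was at 4.35, 3.15 and 1.86 CPM in old livers and 60.4, 53.1 and 11 CPM in adult livers (-3.73 ± 0.67, edgeR adjusted p = 0.0191). Squalene epoxidase, sqlea, a rate-limiting step, was at 9.61, 4.65 and 5.85 CPM in old livers and 161.9, 124.7 and 40.8 CPM in adult livers (-4.02 ± 0.56, edgeR adjusted p = 0.0161). The groups did not overlap in any of these 3 genes, and adult 3 was the lowest adult library in each. NSDHL (-3.93), mvda (-3.19), FDFT1 (-3.54, or -4.34 without old 3), cyp51 (-2.60, or -3.26 without old 3) and mvk (-5.31, or -6.17 without old 3) also fell. The reductase HMGCRA was not called, at 350.8, 133.5 and 402.3 CPM in old livers and 634.2, 681.7 and 419.1 CPM in adult livers (edgeR adjusted p = 0.161). SREBF2, the transcription factor that drives this pathway in mammals, was likewise not called (-1.49, edgeR adjusted p = 0.0559). The list median ran from -2.24 to -1.26 over the libraries left out and was -1.37 after adding the ribosomal RNA share to the model. In libraries scaled by size alone the list summed to 2358, 11099 and 11714 CPM in young 1, 2 and 3. Young 1 had a ribosomal RNA share of 29.65%, against 4.52 and 4.74% in young 2 and 3.

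Fatty acid synthesis and storage had 6 of 39 genes lower (15.4%) and 3 higher (7.69%), at a median of -0.78. Over all genes 5.43% were lower and 7.42% higher, so the share higher was near that of all genes. ACLY, which makes cytosolic acetyl-CoA from citrate, was at 10.3, 8.38 and 6.38 CPM in old livers and 159.7, 91.0 and 40.2 CPM in adult livers (log2 fold change -3.54 ± 0.51, edgeR adjusted p = 0.0161). ACACA, the acetyl-CoA carboxylase of fatty acid synthesis, fell by 2.09, while ACACB, its mitochondrial counterpart that restrains fat oxidation, rose by 1.34. GPAM, the first step of triglyceride synthesis, had no count in old 1 and old 2 and 1.86 CPM in old 3, against 24.2, 26.6 and 17.9 CPM in adult livers (edgeR adjusted p = 0.0407). Its fitted log2 fold change was -5.15, or 0.35 after adding the ribosomal RNA share to the model, and no fold is given without old 3, where old livers have no count. Fatty acid oxidation was lower in part, with 5 of 45 genes called (11.1%), 0 higher and a median of -0.59. The trifunctional enzyme HADHAB (-2.06), ACADVL (-2.13, or -2.72 without old 3) and the peroxisomal oxidase ACOX3 (-1.19) fell. After adding the ribosomal RNA share to the model the medians were -0.02 for synthesis and 0.12 for oxidation. The median for synthesis was -1.21 without old 3.

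Glucose handling changed at several control points. In the glycolysis and gluconeogenesis list, 8 of 47 genes fell and 1 rose. Over all genes 5.43% fell and 7.42% rose, so the share that fell was above that of all genes. The share that rose was under it. The list median was -0.45, or -0.22 after adding the ribosomal RNA share to the model and -0.18 with the length trend removed. PFKL, the liver phosphofructokinase, was at 15.2, 15.3 and 15.9 CPM in old livers and 51.1, 83.1 and 37.9 CPM in adult livers (-1.89 ± 0.31, edgeR adjusted p = 0.0176). Glycogen synthase, gys1, fell by 2.06. Glucokinase, gck, the glucose sensor of the hepatocyte, was at 0.478, 1.45 and 0.975 CPM in old livers and 51.6, 90.3 and 1.09 CPM in adult livers. It was called (-5.61 ± 1.37, edgeR adjusted p = 0.0386) although adult 3 lay within the old range; the value was -6.21 without adult 3 and -4.78 without adult 2. The single riser was PC.

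Part of the protein folding genes of the ER fell. Of 55 tested, 16 were lower (29.1%) and 2 higher (3.64%), with a median of -0.75. Over all genes 5.43% were lower and 7.42% higher. HYOU1, a large ER chaperone, was at 23.1, 26.1 and 40.5 CPM in old livers and 192.2, 189.4 and 131 CPM in adult livers (-2.52 ± 0.30, edgeR adjusted p = 0.0161). SEL1L, the scaffold of the ER-associated degradation ligase, was at 4.83, 4.17 and 5.14 CPM in old livers and 36.8, 34.1 and 23.3 CPM in adult livers (-2.73 ± 0.28, edgeR adjusted p = 0.0136). Groups were apart in both genes. The old livers were close together in SEL1L, while in HYOU1 old 3 was higher than the other old livers and nearest to the adult range. The ligase partner syvn1 (-1.38), the co-chaperone dnajc3a (-1.92), the oxidase ero1b (-2.56), calr (-2.17), CANX (-1.28) and the stress sensor atf6 (-2.44) fell too. XBP1, a transcription factor of the unfolded protein response, was at 22.8, 45.6 and 125.9 CPM in old livers and 314.4, 281.6 and 285.3 CPM in adult livers (-2.18 ± 0.57, edgeR adjusted p = 0.0455), with old 3 nearest to the adult range, and was at -3.13 without old 3. The list also holds pdia2 (-5.31, or -4.04 without adult 1), a pancreatic isomerase that fell with the pancreas genes described below. The list median ran from -0.93 to -0.65 over the libraries left out and was -0.36 after adding the ribosomal RNA share to the model. Coat proteins of vesicles between the ER and the Golgi were singled out after their values were seen. copb1 of the COPI coat was at 19.6, 21.7 and 16 CPM in old livers and 123.2, 146.9 and 89.6 CPM in adult livers (-2.65 ± 0.26, edgeR adjusted p = 0.0136), copa fell by 1.88 and SEC31A of the COPII coat fell by 4.12.

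The list of chaperones and heat shock genes was divided. It holds ER genes too, and HSP90B1 (-1.98) and dnajc3a, both lower, are also counted in the ER list. Of 45 genes in the list, 7 fell, including the mitochondrial Hsp70 HSPA9 (-1.78) and hspa4b (-1.27), and 3 rose, including the abundant constitutive chaperone hspa8 at 2199, 2030 and 1582 CPM in old livers and 932.1, 878.1 and 929.1 CPM in adult livers (1.08 ± 0.20, edgeR adjusted p = 0.02). Of 51 proteasome genes 7 fell and 3 rose. Over all genes 5.43% fell and 7.42% rose, beside 15.6% and 6.67% of the chaperones and 13.7% and 5.88% of the proteasome genes. Those lower were mainly of the regulatory cap, such as PSMD2 (-1.1), psmd5 (-1.87) and psmd13 (-1.5), and those higher were PSMB3 (0.92), PSMB6 (0.97) and PSMD9 (1.03).

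Of 20 plasma protein genes, 2 fell (10%, against 5.43% over all genes) and 0 rose. Their median was -0.43, or -0.28 without old 1, -0.90 without old 3, where 11 were lower, and 0.21 after adding the ribosomal RNA share to the model. Ceruloplasmin, CP, the copper carrier, was at 680.9, 719.7 and 2009 CPM in old livers and 7247, 4527 and 6315 CPM in adult livers (-2.41 ± 0.47, edgeR adjusted p = 0.0223), or -3.13 without old 3. Hemopexin, hpxa, the haem carrier and among the 10 most abundant genes, was at 11406, 13609 and 51472 CPM in old livers and 68000, 83505 and 75391 CPM in adult livers. Old 1 and old 2 were far below the adult range and old 3 was near it, and the gene was not called (edgeR adjusted p = 0.108). The serotransferrin gene tfa was at 19071, 19616 and 19737 CPM in old livers and 19596, 19442 and 22841 CPM in adult livers, with overlapping groups. In complement (17 genes) and coagulation (25 genes), 0 members were called in either direction by edgeR. Among apolipoproteins and lipid-handling genes, 5 of 20 fell, such as apobb.1 (-1.63) and the hepatic lipase lipca (-1.15), and 1 rose, the receptor LRP1 (1.63). The list of hepatocyte markers summed to 140020, 167790 and 244670 CPM in old livers and 196780, 221450 and 222980 CPM in adult livers, with overlapping groups.

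Some cell division genes fell in old livers. In the DNA replication list 48 of 55 genes had negative fold changes, 8 were called and 0 rose, with a median of -1.57, or -0.73 after adding the ribosomal RNA share to the model; 23 were called without old 3. uhrf1, which couples replication to maintenance of DNA methylation, was at 0.850, 0.727 and 0.975 CPM in old livers and 11.9, 27.7 and 10.6 CPM in adult livers (-4.29 ± 0.50, edgeR adjusted p = 0.0161). The helicase subunit MCM2 was at 6.53, 2.86 and 1.55 CPM in old livers and 29.3, 47.0 and 32.9 CPM in adult livers (-3.32 ± 0.53, edgeR adjusted p = 0.017), or -4.05 without old 1. Both genes were apart between the ages, at a low level in old livers. The replication genes called were 14.5% of their list, beside 5.43% lower and 7.42% higher over all genes. In the mitosis list 7 of 49 genes fell (14.3%) and 1 rose (2.04%), also at a median of -1.57. Setting the 6 genes without a count in an age to their lower bound left it unchanged. So few genes can hardly move a median, so this is no check. The condensin subunit ncapg had no count in old livers and 2.22, 1.90 and 2.66 CPM in adult livers, at least 47.0-fold lower, taking 3 counts over the old libraries as the floor. The motility receptor HMMR and the cyclin CCNB2 were at least 47.6-fold and 36.8-fold lower by the same floor, and NCAPG2 had no count in old livers either. The list depended on old 3. Its per-library median against the adult mean was -3.78 and -3.09 in old 1 and old 2 but -0.39 in old 3. The list median was -3.92 without old 3, where 27 of 50 genes were lower. After adding the ribosomal RNA share to the model the list median was 0.70. That fit cannot tell the share apart from age, so a dependence of the list on the share was not tested. The replication factor pcna was at 2.34, 35.2 and 27.3 CPM in old livers and 80.0, 167.5 and 62.2 CPM in adult livers and was not called (edgeR adjusted p = 0.121). The kinesin kifc1 (ENSNFUG00015015819) was the mitosis gene that rose (3.62). Of 65 DNA repair genes 4 fell, such as ddb1 (-1.57), and 2 rose, ERCC6 (2.12) and ercc2 (1.24). These are 6.15% lower and 3.08% higher, beside 5.43% and 7.42% over all genes.

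Some transcription factors of stress and of hepatocyte identity rose. Of 32 hepatocyte factors 7 were higher (21.9%) and 2 lower (6.25%), beside 7.42% and 5.43% over all genes. Their median was 0.34, or 0.19 without old 3 and 0.20 without adult 1. CEBPB, which drives acute-phase and gluconeogenic genes, was at 187.6, 120.7 and 63.2 CPM in old livers and 17.2, 14.1 and 23.3 CPM in adult livers (2.76 ± 0.42, edgeR adjusted p = 0.0161). CEBPD was at 135.6, 133.8 and 66.3 CPM in old livers and 7.92, 8.27 and 23.7 CPM in adult livers (3.07 ± 0.52, edgeR adjusted p = 0.0179), or 3.76 without adult 3. ONECUT2 (1.73), foxa3 (1.11), nr1i2 (1.27) and both genes named PROX1 (1.14 and 1.1) rose, and nr0b2a, the bile acid-induced repressor, fell (-1.63). Of 50 immediate early and stress regulators 6 rose (12%) and 0 fell. The list median was 0.70, or 0.44 after adding the ribosomal RNA share to the model. IER2 (3.05, or 2.28 without old 1), KLF2 (1.54) and FOSL2 (2.46) were among those that rose. In the clock list 2 of 37 genes rose (5.41%) and 4 fell (10.8%), beside 7.42% and 5.43% over all genes. CRY2A was at 3.45, 10.6 and 9.66 CPM in old livers and 49.7, 60.1 and 49.2 CPM in adult livers (-2.74 ± 0.42, edgeR adjusted p = 0.0161). PER3 fell by 3.14 (by 3.88 without old 1), and the repressor nr1d2a rose by 1.98. The labels give no hour of sampling, so the clock genes cannot be told apart from the time of day. Of 62 chromatin genes 5 rose (8.1%) and 3 fell (4.84%), near the 7.42% and 5.43% over all genes. Among them the methyltransferase KMT2A (2.82) rose and EZH2 (-1.94) fell.

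In the growth hormone, IGF and insulin list, 4 of 55 genes rose and 4 fell, 7.27% each way beside 7.42% higher and 5.43% lower over all genes, so the list as a whole was near the share of all genes. IGFALS, which holds IGF in the circulation, was at 127.2, 183.8 and 217.1 CPM in old livers and 476.5, 599.1 and 513.9 CPM in adult livers (-1.59 ± 0.25, edgeR adjusted p = 0.0164). IGF1 itself was at 25.4, 25.7 and 34.4 CPM in old livers and 14.2, 17 and 17.3 CPM in adult livers; the groups did not overlap but the gene was not called (0.82, edgeR adjusted p = 0.0596). INSRB, an insulin receptor gene, was at 64.2, 36.6 and 17.8 CPM in old livers and 6.58, 5.23 and 7.5 CPM in adult livers (2.62 ± 0.47, edgeR adjusted p = 0.0191). tsc1b, a brake on mTORC1, rose by 2.21.

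Some matrix genes changed: 11 of 59 fell (18.6%) and 3 rose (5.1%), with a median of -0.85. Over all genes 5.43% fell and 7.42% rose, so the share that rose was under that of all genes. col1a1b, a type I collagen chain, was at 15.6, 12.5 and 19.2 CPM in old livers and 121.2, 71.6 and 60.9 CPM in adult livers (-2.42 ± 0.33, edgeR adjusted p = 0.0161). COL1A2 (-2.16), DCN (-1.86) and FBLN2 (-2.15) fell as well. COL12A1 was at 20.7, 15.7 and 8.02 CPM in old livers and 2.22, 1.1 and 2.93 CPM in adult livers (2.82 ± 0.51, edgeR adjusted p = 0.0191), and versican, vcana (ENSNFUG00015019670, 3.30), and tgfb1a (1.63) rose with it. The stellate cell and fibroblast marker list, which shares its collagens with the matrix list, had 5 of 16 genes lower and 1 higher. Its sum was 1225, 1061 and 397.9 CPM in old livers and 1168, 443.9 and 726.0 CPM in adult livers, with overlapping groups.

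Iron, detoxification and autophagy genes changed singly. The list counts here are to be read beside 7.42% higher and 5.43% lower over all genes. The ferritin gene FTL, which stores iron, was at 2211, 1459 and 2008 CPM in old livers and 452.7, 395.0 and 696.6 CPM in adult livers (1.88 ± 0.29, edgeR adjusted p = 0.0161). The iron exporter SLC40A1 was at 7.59, 7.02 and 26.8 CPM in old livers and 57.8, 54.8 and 63.4 CPM in adult livers (-2.09 ± 0.52, edgeR adjusted p = 0.0414), or -3.03 without old 3. CYP1A, the dioxin-responsive cytochrome P450, was at 33.7, 40.7 and 80.7 CPM in old livers and 188.8, 219.0 and 253.8 CPM in adult livers (-2.09 ± 0.36, edgeR adjusted p = 0.0179). The autophagy receptor sqstm1 was at 255.0, 175.2 and 112.2 CPM in old livers and 38.7, 26.2 and 55.1 CPM in adult livers (2.18 ± 0.39, edgeR adjusted p = 0.019), and the lysosomal sphingomyelinase SMPD1 fell by 2.36. In the lysosome and autophagy list 6 of 78 genes rose (7.69%) and 3 fell (3.85%), near the shares of all genes. In the glutathione and antioxidant list 5 of 39 rose, such as gsta.1 (1.42), and 3 fell, GCLC (-2.10), TXNRD1 (-2.42, or -3.27 without old 3) and tktb (-1.29). In amino acid metabolism 8 of 75 rose (10.7%), such as the transaminases got1 (1.3) and bcat2 (1.2). Another 5 fell (6.67%), such as SRM (-1.63) and AMD1 (-2.35), both of polyamine synthesis. In bile acid synthesis and transport 2 of 20 rose, ABCC2 (1.54) and fgf19 (2.2, or 3.19 without adult 3), and 4 fell, such as abcg5 (-1.26).

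Digestive enzymes of the exocrine pancreas were lower in old livers by the largest margins of any list. Pancreatic tissue of many bony fish is spread along or inside the liver. Of 18 tested pancreas genes 14 fell (77.8%, beside 5.43% over all genes) and 0 rose and the median was -5.39 on the log2 scale. The list summed to 1855, 1515 and 1811 CPM in old livers and 78616, 7150 and 24949 CPM in adult livers. The old libraries were alike, whereas the adult libraries differed widely, with adult 1 highest. Carboxypeptidase cpa1 was at 130.3, 85.6 and 89.8 CPM in old livers and 10865, 832.1 and 3383 CPM in adult livers (-5.62 ± 0.92, edgeR adjusted p = 0.0175), or -4.41 without adult 1. The list median was -4.21 at its smallest over the libraries left out. Members called were 14 without old 1, 14 without old 3 and 13 without adult 2. Without old 2, adult 1 or adult 3, 0 were called. The amylase gene amy2al2 was not called (-0.77). In libraries scaled by size alone the sum was 725.5, 1581 and 3374 CPM in young fish. Pancreatic islet hormones also varied by library, insulin (INS) being at 11.8, 0 and 138.2 CPM in old livers and 536.3, 2.83 and 373.1 CPM in adult livers, with overlapping groups. Whether the difference in pancreas genes lies in how much pancreas each sample held cannot be told apart from a change with age.

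Lists of markers of other cell types were small, and their counts are set against 7.42% higher and 5.43% lower over all genes. The macrophage list summed to 3077, 3057 and 2181 CPM in old livers and 2333, 2379 and 2049 CPM in adult livers, with 2 of 23 genes lower, MPEG1 (ENSNFUG00015018482, -2.37, or -3.02 without old 3) and SLC40A1, and 0 higher. Neutrophil markers had 0 of 11 genes called by edgeR and summed to 53.3, 35.3 and 35.1 CPM in old livers and 294.3, 31.0 and 32.9 CPM in adult livers, adult 1 being high. Of 18 matched T and NK cell genes 4 were tested and 1 rose, the lymphocyte kinase lck, at 12.9, 16.9 and 11.1 CPM in old livers and 0.919, 1.18 and 1.39 CPM in adult livers (log2 fold change 3.55 ± 0.36, edgeR adjusted p = 0.0136). Of 24 interferon and antigen presentation genes 1 fell, STAT2 (-0.87). Of 36 inflammatory genes 2 rose, ripk2 (2.34) and tgfb1a, and 1 fell, TNFAIP3 (-2.14). Endothelial cell markers had 2 of 24 genes lower, kdr (-2.18) and pecam1b (-2.21, or -2.81 without old 1), and 1 higher, CLDN5B (1.13). The erythroid list had 2 of 17 genes lower and 0 higher. Of 6 B and plasma cell genes 1 fell, XBP1, which is also in the ER list. Of 15 biliary genes 1 rose and 1 fell, of 8 thrombocyte genes 2 fell, of 7 adipocyte genes 1 fell and of 14 intestinal genes 2 rose. The list of proliferating cells summed to 4.25, 40.8 and 52.3 CPM in old livers and 117.7, 219.9 and 101.6 CPM in adult livers, at a median of -2.26. Without old 3 that median was -5.70 and 8 of 11 genes were called lower, against 1 with all libraries, and it was 1.04 after adding the ribosomal RNA share to the model.

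**Figure D4:**
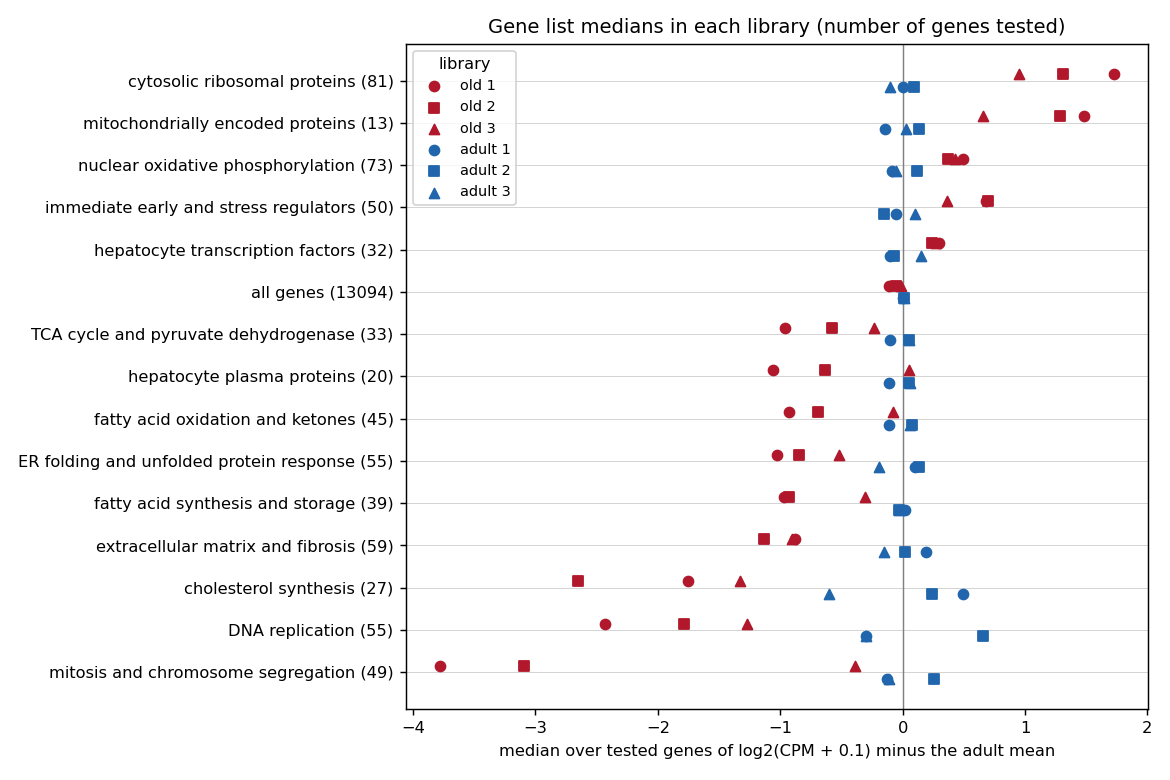
Median over the tested genes of each list of log2(CPM + 0.1) minus the mean of the adult libraries, 1 point per library, old in red above adult in blue, with the number of genes tested. Ribosomal proteins are at 1.73, 1.31 and 0.95 in old 1, 2 and 3 and cholesterol synthesis at -1.75, -2.65 and -1.33, while all genes together are near 0.

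The calls also differed by kind of gene. Over all genes 7.42% rose and 5.43% fell. Of 221 tested long non-coding RNA genes 59 rose (26.7%) and 0 fell, at a median log2 fold change of 1.28. Of 1798 tested genes with neither symbol nor description 246 rose (13.7%) and 52 fell (2.89%). The strongest of these (ENSNFUG00015003532, protein-coding, chromosome 2), singled out after its values were seen, was at 1849, 1836 and 824.6 CPM in old livers and 61.9, 51.5 and 39.5 CPM in adult livers (4.88 ± 0.40, edgeR adjusted p = 0.0102). Fold changes varied with gene length as well. In the shortest of 10 equal groups of genes by length the median log2 fold change was 0.315, with 165 genes higher and 27 lower, and in the longest group it was 0.311, with 157 higher and 60 lower. In the group of 1537 to 1796 bases it was -0.214, with 62 higher and 80 lower. With the length trend removed from each library, an alternative added after seeing the data, 1619 genes were called, of which 1452 were among the 1682, and 61 of 81 ribosomal protein genes and 9 of 27 cholesterol synthesis genes were called, higher and lower in old livers as before, while the nuclear respiratory-chain list had 5 higher in place of 13.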

How the data were processed

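Liver RNA of 3 old (23 to 24 weeks) and 3 adult (12 weeks) male killifish was compared. Per the labels' protocols, TRIzol extraction, DNase I and RNeasy columns preceded library making with a SMART-Seq mRNA kit. DRAGEN is named, with no version or role, in the submitters' processing notes. How reads were aligned, which strand was counted and which genome build and annotation were used is not given in the sources used here. Per the file headers, the deposited table holds an estimated count and a TPM value per gene and library. The authors' TPM values were read but enter no test and no printed result. Estimated counts as deposited have totals that differ between libraries; they were rounded to whole numbers. The table itself names 14581 genes; 621 others took a symbol through their Entrez number from RefSeq (assembly NfurGRZ-RIMD1, used for names only), and 10273 had none.

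Differences were tested in edgeR 4.0.16 under R 4.3.3 (filterByExpr, TMM, robust glmQLFit, glmQLFTest), with p-values adjusted by the Benjamini-Hochberg method over the 13094 genes tested. An adjusted p under 0.05 was called, and "rose" or "fell" is used of called genes. The common biological coefficient of variation was 0.512. Values are CPM on TMM-adjusted library sizes. The standard error is the size of the log2 fold change divided by the square root of F. Where an age had no count, a fold is a lower bound that sets the empty age to 3 counts over its 3 libraries (0.0484 CPM in old) and covers counting error only. Values of whole libraries were compared by an exact permutation test. The 55 gene lists and the rule for named genes were chosen with earlier results of these data known, and lists were described by counts and medians, with no set test. The rule names, for each direction, the 12 largest folds among called genes with a symbol or description, 10 or more CPM on average in the higher age, and no overlap (any remainder by smallest p), up to 4 called members of each list with the smallest p (otherwise 2 of smallest p and 2 of highest abundance), the 10 most abundant genes, an ageing panel and the 3 most abundant members of each other-cell-type list. The text prints some of them; list members printed beyond it, and genes said to be singled out, were picked with their values known. Alternatives were RLE scaling, library size only, removal of ribosomal RNA and mitochondrial genes, TMM without pancreas genes and the 20 most abundant genes, other count filters, DESeq2 1.42.0, limma-voom (limma 3.58.1) with and without quality weights, no robust estimation, a replicate block, the ribosomal RNA share as a covariate, all 9 libraries, glmTreat at 1.5-fold, each library left out, and, added after seeing the data, removal of a gene length trend.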

Additional observations from a re-analysis of the deposited data

How the results depend on the processing

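Scaling, robust estimation, count filters, limma-voom and removal of the length trend left the count of called genes within 1.5 times of 1682, and scaling moved the median of all genes by less than 0.1. limma-voom put 955 higher and 1051 lower, a higher share of 47.6% beside 57.7%, and without old 3 the share was 47.4%. DESeq2 called 3071 genes, voom with quality weights 3163, glmTreat 642, the fit with all 9 libraries 1 and the fit with the ribosomal RNA share in the model 0; among list members, 361 of which were called, the counts were 575, 586, 0 with all 9 libraries and 0 with that share. glmTreat called 37 of 81 ribosomal protein genes, 4 of 13 mitochondrially encoded and 1 of 73 nuclear respiratory-chain genes higher, and 6 of 27 cholesterol synthesis and 9 of 55 ER folding genes lower; its count over all list members was not computed. The cause of these differences was not tested. With 1 library left out in turn, 0 to 3762 genes and 0 to 671 list members were called, each fit of 2 libraries against 3 having fewer samples. The old minus adult difference over the libraries left out ran from 8.66 to 16.1 percentage points for ribosomal RNA share, from 1.33 to 2 for mitochondrially encoded proteins, from 19958 to 31218 CPM for ribosomal proteins, from -50055 to -14323 CPM for pancreas genes and from -3513 to -2129 CPM for cholesterol synthesis.

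Replicate numbers were used as a block in a further fit, which called 549 genes (283 higher, 266 lower) and 175 list members. Deviations of same-numbered libraries from the mean of their age correlated at 0.044, 0.043 and 0.045, against -0.04 to -0.005 for other pairs. Every library thus correlated best with its own number, but all values were under 0.1 and the numbers were not taken as pairs. Such deviations cancel within an age, so these values are tied to each other and cannot show pairing library by library. The pattern comes from the data, not from the design.

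Among 160 genes named, 13 of 3331 alternative values had the opposite sign. With the ribosomal RNA share in the model these were sirt1 (3.20), FOXO3B (-2.68), RPS27 (0.59) and GPAM (0.35), of which GPAM was called in the main test. SIRT6 was at -0.012 without a filter on low counts and -0.008 with the replicate block, and ran from -0.459 to 0.449 over the libraries left out. sirt1 ran from -0.533 to 0.533 over them and was at 0.137 with the length trend removed, where tfa was at 0.149. The calls of the genes named ended in 1041 of the 3331 alternative values and 23 uncalled ones became called; without old 1 or old 3, 117 and 144 of the 146 called genes kept the call. Depth of 19600325 to 26974448 counts leaves genes under the filter untested.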
